A study of Arabidopsis thaliana with 28 samples.

Results

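The comparison described here is that of seedlings given abscisic acid (ABA) with mock seedlings 6 h after the start, read across all mature miRNAs of the deposited table. The members are the miRNAs whose mock and ABA columns at 6 h have a mean of at least 10 normalised reads, and 343 of 421 entries met this rule. The rule uses the level over both groups and not the difference between them. Just inside it stood miR394b-3p at 10.9 and miR3932a at 10.975, and just outside stood miR1886 at 9.46 and miR780 at 8.97. The seedlings were wild-type Arabidopsis thaliana of the Col-0 ecotype, and no genetic change separates the groups. The mock was ethanol (EtOH in the labels), and each of the 2 groups at 6 h has 2 libraries, out of 28 libraries from 7 times in all. The sources used here do not give the dose of ABA, the age of the seedlings or the number of plants behind a library. Whether the libraries of a group are separate cultures is not stated either, so each p-value is set against a spread between libraries that may be technical. In the limma fit that spread is estimated for each miRNA over those of the 14 groups whose library values could be recovered. It is not taken from the libraries of 6 h alone, and it is drawn towards a trend shared by the tested miRNAs. The table holds miRNAs alone, so marker genes of the tissue were not analysed here. The material was whole seedlings, in which fewer cells with a miRNA and less of it per cell cannot be told apart.

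ABA is the plant hormone of drought, osmotic stress and seed dormancy. A plant miRNA is cut from a hairpin precursor by a Dicer-like enzyme, which releases a duplex of a 5p and a 3p arm. In most hairpins one arm, the guide, is loaded into an ARGONAUTE protein and directs the cleavage of messenger RNAs that it matches closely, while the other arm, the passenger, is usually degraded. Families named by the same number share most of their sequence and their targets. Several families are known from nutrient responses. The copper families miR397, miR398, miR408 and miR857 accumulate in copper shortage and act on messages of copper proteins such as laccases, plantacyanin and copper/zinc superoxide dismutases. The phosphate families miR399, miR827 and miR2111 accumulate in phosphate shortage.

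The results turn on a small set of mature sequences, shown here so that members sharing a seed can be recognised. They were read from the RefSeq TAIR10.1 assembly at the positions its own annotation gives for each name, 5′ to 3′, with the seed (bases 2 to 8) in capitals. The first set holds the copper and phosphate miRNAs that led the raised side.
miR397a: uCAUUGAGugcagcguugaug
miR397b: uCAUUGAGugcaucguugaug
miR398a-3p: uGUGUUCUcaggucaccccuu
miR398b-3p and miR398c-3p: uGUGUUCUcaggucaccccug
miR408-3p: aUGCACUGccucuucccuggc
miR857: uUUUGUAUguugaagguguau
miR399d: uGCCAAAGgagauuugccccg
miR399f: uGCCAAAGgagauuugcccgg
miR2111a-5p and miR2111b-5p: uAAUCUGCauccugagguuua
miR2111b-3p: aUCCUCGGgauacaguuuacc
The second set holds arms that led the lowered side, and the 5p arm of miR393, whose passenger arms fell.
miR5634: aGGGACUUugugaauuuaggg
miR169b-5p and miR169c: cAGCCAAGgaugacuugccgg
miR169b-3p: gGCAAGUUguccuucggcuaca
miR167a-3p: gAUCAUGUucgcaguuucacc
miR390a-5p and miR390b-5p: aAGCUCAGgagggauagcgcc
miR396b-3p: gCUCAAGAaagcugugggaaa
miR398a-5p: aAGGAGUGgcaugugaacaca
miR393a-5p and miR393b-5p: uCCAAAGGgaucgcauugaucc
miR393a-3p: aUCAUGCUaucucuuuggauu
miR393b-3p: aUCAUGCGaucucuuuggauu
Counted from 1 at the 5′ end, miR397a and miR397b differ by G13U, miR398a-3p and miR398b-3p by U21G, miR399d and miR399f by C20G, and miR393a-3p and miR393b-3p by U8G. The last of these lies in the seed, and the other 3 pairs share their seed. Entries printed on one line have 1 sequence, and their reads cannot be assigned to a locus. On RefSeq TAIR10.1 the mature miR857 (chromosome 4, 7878198 to 7878218, minus strand) and miR397b (7878730 to 7878750, minus strand) lie 511 bases apart. The mature miR399d (chromosome 2, 14442988 to 14443008, minus strand) and miR399f (14445084 to 14445104, plus strand) are 2075 bases apart on opposite strands. The mature miR398b-3p (chromosome 5, 4691107 to 4691127) and miR398c-3p (4694778 to 4694798) are 3650 bases apart on the plus strand. No coding gene is annotated across miR857, miR397b, miR399d, miR399f or miR398c-3p, while the coding gene AT5G14550 runs across miR398b-3p on the opposite strand.

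Normalised read counts are counts divided by a size factor of the library, and the deposited column of a group is the mean over its 2 libraries. The 2 library values behind both columns were recovered for 304 members, and they are called a and b within a group, a being the one with the larger size factor. The letters carry no link between groups. The recovered reads summed to 511300 and 448700 in mock libraries a and b, and to 740594 and 523312 in ABA libraries a and b. These sums are not the full depth, which is unknown, since the 39 members without library values held 91.0% of the mock column and 92.7% of the ABA column. Over members with library values, log2 values of libraries a and b differed with an SD of 0.59 in mock and 0.74 in ABA for members with a mean of 10 to 100. It was 0.39 and 0.47 for members with a mean of 1000 or more. Low members are therefore measured less precisely than abundant ones, and the ABA libraries lay further from each other than the mock libraries did. Over entries at 10 or more in a column, this SD was 0.61 for ABA at 6 h. Over all 14 groups it ran from 0.31 (mock at 12 h) to 0.64 (mock at 3 h), so the shared estimate may be low for ABA at 6 h.

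Most members differed little. Of the 343 members, 243 (70.8%) had a ratio of ABA to mock group means within 1.5-fold, and the median log2((ABA + 1)/(mock + 1)) was 0.03. The middle of the range, from the 25th to the 75th percentile, ran from -0.37 to 0.38. At least 2-fold higher were 20 members and at least 2-fold lower were 12, where 7.84% and 6.18% of all 421 entries passed the same folds. The limma test of the library values (log2 of the value plus 1, Benjamini-Hochberg adjusted over 354 tested miRNAs, threshold 0.05) called 36 of 304 tested members, 16 raised and 20 lowered. Over all 354 tested miRNAs it called 10.5%, with 4.8% raised and 5.65% lowered. The raised members hold 13 distinct sequences and the lowered ones 18. In all 36 the libraries of the groups did not overlap. That also held for many members that were not called: the ABA libraries lay above both mock libraries in 87 members and below both in 70, where 26.8% and 23.7% of all tested miRNAs did so. Of the 32 members past 2-fold, 12 were raised, 9 lowered, 8 not called and 3 had no library values.

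**Figure D1:**
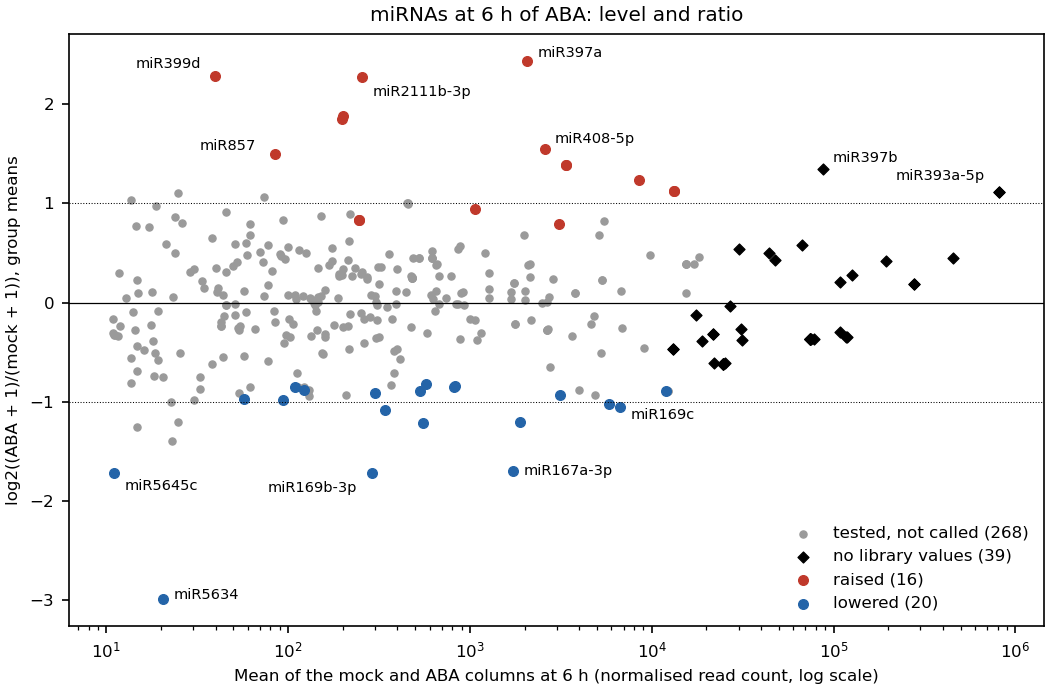
Each point is 1 of the 343 members, with the mean of the mock and ABA columns at 6 h in normalised reads on a log axis and the log2 ratio of the group means on the vertical axis; dotted lines mark 2-fold. The 16 raised members (red) reach 2.44 for miR397a, the 20 lowered ones (blue) reach -2.99 for miR5634, and the 39 members without library values (black) lie at the right, between -0.62 and 1.35.

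The call rests on few libraries, and leaving out 1 of the 4 libraries of 6 h changed the number called. Without ABA library b, 11 members were raised and 5 lowered, and without mock library a, 8 and 8. Without mock library b the counts were 17 and 9, and without ABA library a they were 14 and 25. With only the 4 libraries of 6 h in the fit, 11 were raised and 7 lowered. The call held in all 4 fits with 1 library left out for 8 of the 16 raised members, namely miR397a, miR399d, miR2111a-5p, miR2111b-5p, miR2111b-3p, miR398b-5p, miR398c-5p and miR408-5p. On the lowered side it held for 4 of 20, namely miR5634, miR167a-3p, miR169b-3p and miR169c.

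Most copper miRNAs were raised. All 11 entries of the copper list were members, 9 of 10 tested ones rose, 1 fell and 0 were left uncalled, where 4.8% of all tested miRNAs were raised. The median log2 ratio of group means over the 11 entries was 1.35, against 0.03 over all members. With 1 entry per sequence, 7 of 8 tested ones rose and 1 fell. This list and the other lists were chosen with earlier results of these data known, so their counts are a description. Leaving out 1 library left 4 to 8 of the 9 raised, with 4 without mock library a and 5 without ABA library b.

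The level of miR397a, which directs cleavage of laccase messages, was 584 and 696 normalised reads in mock libraries a and b and 2677 and 4274 in ABA libraries a and b. Both ABA libraries lay far above both mock libraries, although they differed from each other more than the mock libraries did. The rise was 5.30-fold (log2 difference 2.41, SE 0.26, limma adjusted p = 1.24e-06), the largest among members of the copper list, and without 1 library it was 2.07 to 2.74 on the log2 scale. Its sister miR397b, 1 base different, had no library values. The authors' deposited means were 49087 in mock and 125114 in ABA, a log2 ratio of 1.35, with an adjusted p of 0.0267 in the authors' deposited table. The more abundant sister thus had the smaller ratio.

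Another laccase regulator, miR857, lies next to miR397b and is much rarer. Its values were 41.3 and 46.1 in mock and 91.7 and 159 in ABA, which rested on 52 to 116 recovered reads a library. The groups did not overlap, and the rise was 2.72-fold (log2 difference 1.45, SE 0.36, limma adjusted p = 0.0111), a call lost without ABA library b or mock library a.

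Both arms of miR408, whose 3p guide acts on plantacyanin and laccase messages, rose. The guide miR408-3p stood at 2096 and 2422 in mock and at 3922 and 3917 in ABA, with ABA libraries that nearly coincided. Its log2 difference was 0.80 (SE 0.25, adjusted p = 0.0428), and the call was lost in each of the 4 fits with 1 library left out. The 5p arm stood at 1436 and 1195 in mock and at 4834 and 2843 in ABA, a 2.83-fold rise (SE 0.28 on the log2 scale, limma adjusted p = 0.00151). In the authors' deposited table neither arm passed, with an adjusted p of 0.150 for the 5p and 0.185 for the 3p arm. At 6 h the ABA values of the 5p and 3p arms overlapped, whereas both mock values of the 3p arm were above both of the 5p arm.

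The miR398 family, which acts on copper/zinc superoxide dismutases and their copper chaperone, rose on all but 1 of its arms. The shared 3p guide of miR398b and miR398c, read at the entry miR398b-3p, was at 1613 and 2108 in mock and at 4331 and 5397 in ABA, a log2 difference of 1.39 (SE 0.30, adjusted p = 0.00417). The call of this guide was lost without ABA library b or mock library a. Their 5p arm, read at miR398b-5p, was at 8393 and 8249 in mock and at 19376 and 16866 in ABA, with a log2 difference of 1.12 (SE 0.22, adjusted p = 0.00429). In these libraries the listed 5p arm exceeded the guide. The guide miR398a-3p, from the third locus, was at 163 and 190 in mock and at 371 and 260 in ABA, with a log2 difference of 0.82 (SE 0.22, adjusted p = 0.0155). The 5p arm of the same hairpin went the other way: miR398a-5p was at 375 and 554 in mock and at 233 and 205 in ABA, with a log2 difference of -1.06 (SE 0.29, adjusted p = 0.0198). The call of miR398a-3p was lost without ABA library a or mock library a, and that of miR398a-5p without library b of either group.

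**Figure D2:**
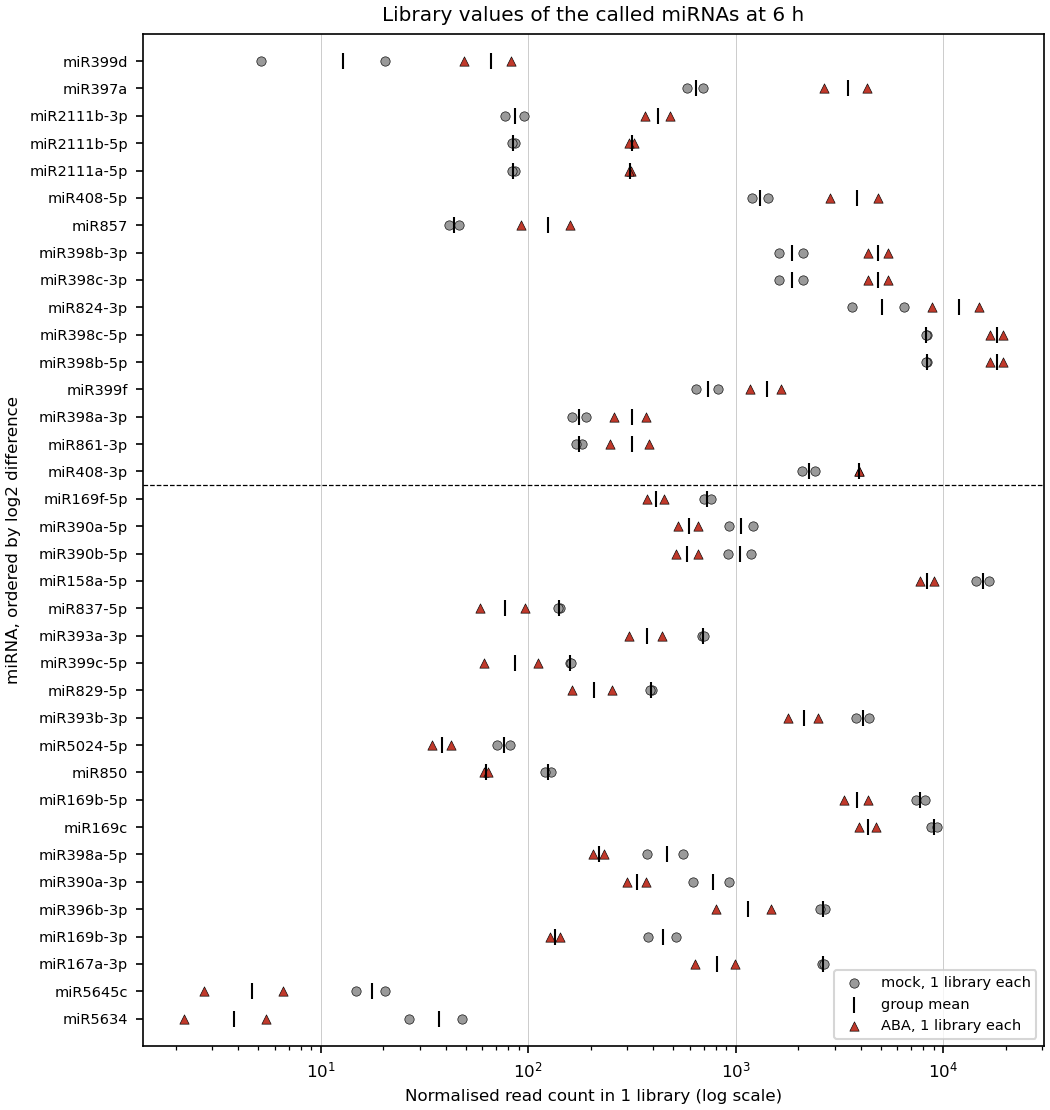
Normalised read counts of the 4 libraries of 6 h on a log axis for the 36 called members, ordered by log2 difference; circles are mock libraries, triangles ABA libraries and bars the group means. No ABA symbol lies among the mock symbols of its row, and the log2 difference between the groups is largest for miR5634, miR399d and miR397a.

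Of the phosphate list, 10 of 13 entries were members and were tested. With 1 entry per sequence, 4 of 8 rose and 1 fell. Of the 10 tested entries 5 rose, 1 fell and 4 did not pass, where 4.8% of all tested miRNAs were raised and 5.65% lowered, with a median log2 ratio of 1.00. With 1 library left out 4 or 5 rose, and the fallen member kept its call only without ABA library a. The miR2111 arms, known from systemic signalling of phosphate and nitrogen and, in legumes, of nodulation, rose with close library values. The 5p sequence, read at miR2111a-5p, was at 86.3 and 83.4 in mock and at 313 and 305 in ABA, so that each pair of libraries differed by little. Its rise was 3.61-fold (log2 difference 1.85, SE 0.24, adjusted p = 9.24e-06). The 3p arm miR2111b-3p was at 77.4 and 95.8 in mock and at 364 and 482 in ABA, a 4.82-fold rise (log2 difference 2.27, SE 0.22, adjusted p = 2.98e-07), the smallest p of all members.

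Members of the miR399 family target the ubiquitin-conjugating enzyme PHO2, and at 6 h they ranged widely although d and f differ by 1 base. The rare miR399d had 7 and 23 recovered reads in mock libraries a and b, against 76 and 36 in ABA, or 5.16 and 20.4 normalised reads against 83.0 and 49.2. The groups did not overlap, but the mock libraries differed several-fold, and the 5.66-fold rise (SE 0.44 on the log2 scale, adjusted p = 0.000675) was a log2 difference of 1.60 to 3.40 when 1 library was left out. The more abundant miR399f was at 641 and 822 in mock and at 1648 and 1173 in ABA, a log2 difference of 0.94 (SE 0.25, adjusted p = 0.0161), and lost its call without library a of either group. Values of miR399a, miR399b and miR399c-3p did not pass, at 1.06 (adjusted p = 0.0637), 0.42 and 0.38 on the log2 scale. The passenger miR399c-5p fell from 159 and 161 in mock to 111 and 61.5 in ABA (log2 difference -0.94, SE 0.30, adjusted p = 0.0494). The level of miR827, which targets the phosphate regulator NLA, was at 0.23 (adjusted p = 0.647) with overlapping libraries.

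The miR395 family acts on ATP sulfurylases and a sulfate transporter in sulfate assimilation. All 6 of its entries had ABA libraries above the mock libraries, where 26.8% of all tested miRNAs did so. These entries hold only 2 sequences, and 0 of 6 passed, where 4.8% of all tested miRNAs were raised. The sequence of miR395a was at 338 and 269 in mock and at 786 and 424 in ABA (log2 difference 0.93, SE 0.36, adjusted p = 0.0961). The sequence of miR395b was at 566 and 480 in mock and at 783 and 644 in ABA (0.45, SE 0.37, adjusted p = 0.459). Library a exceeded library b for all 6 entries in both groups. The nitrogen list had 0 members, since miR826a, with means of 0.444 in mock and 16.3 in ABA, is under the level of 10.

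The NF-Y list, the miR169 family that acts on NF-YA transcription factor messages, held both lowered members and members near or above the mock level. The 18 members hold 8 sequences, and with 1 entry per sequence 2 of 8 fell. Of 18 tested members 4 fell, 0 rose and 14 were not called, where 5.65% of all tested miRNAs were lowered, and the median log2 ratio was -0.18. Without mock library b, 2 of the 4 were called. The guide sequence of miR169b-5p and miR169c was listed at 7380 and 8151 in mock and 3333 and 4334 in ABA under miR169b-5p. The groups did not overlap, and the fall was 2.04-fold (log2 difference -1.03, SE 0.24, adjusted p = 0.00607). With only the 4 libraries of 6 h in the limma fit it did not pass (SE 0.28, adjusted p = 0.0516). The call was also lost without ABA library a or mock library b. Under miR169c the same sequence was listed 1.16-fold higher in mock, and its fall of 1.06 on the log2 scale was called in all 4 fits. The passenger miR169b-3p fell from 378 and 513 to 128 and 142 (log2 difference -1.70, SE 0.35, adjusted p = 0.00287).

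Differences between the miR169 guides were not tested, and their values are given side by side. The sequence of miR169h to miR169n, listed at 7 loci, had log2 ratios between -0.28 and -0.01, and 0 of the 7 entries passed. The most abundant member, miR169a-5p, was at 14739 and 15920 in mock and at 22046 and 20112 in ABA, a log2 difference of 0.46 that did not pass (adjusted p = 0.261). A further sequence is listed at miR169d, miR169e, miR169f-5p and miR169g-5p with conflicting values: miR169f-5p fell by 0.83 (SE 0.25, adjusted p = 0.0377) while miR169g-5p stood at -0.71 (adjusted p = 0.102), miR169d at 0.39 (adjusted p = 0.478) and miR169e at 0.40 (adjusted p = 0.466). The call of miR169f-5p was kept only without ABA library a. The fall of miR169f-5p therefore cannot be read as a fall of that sequence.

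**Figure D3:**
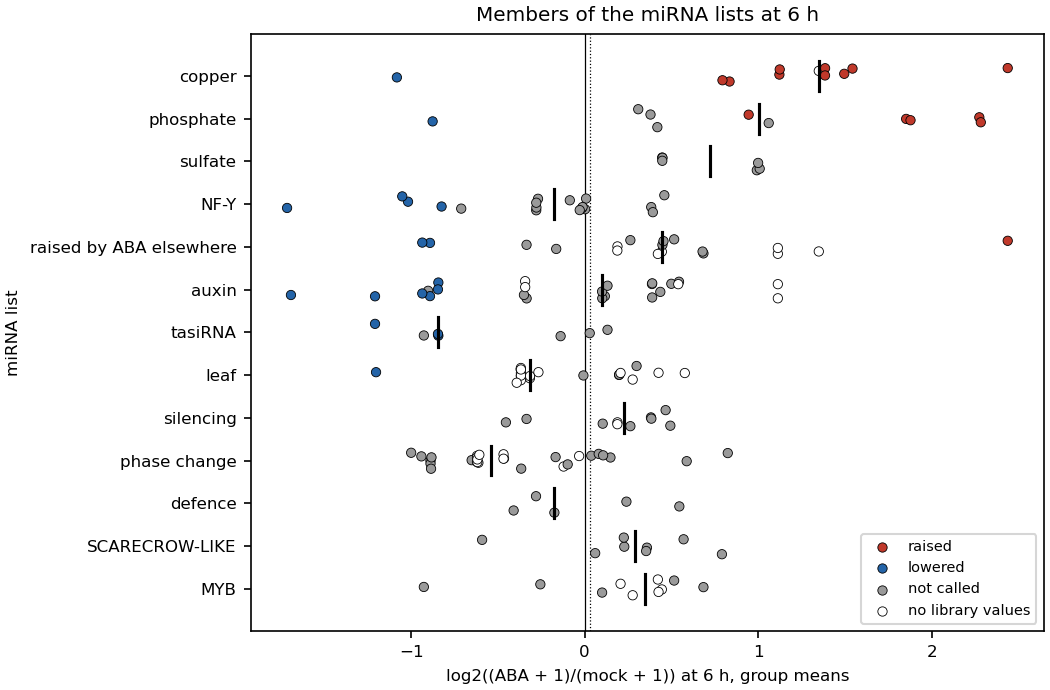
Log2 ratio of ABA to mock group means at 6 h for the members of 13 miRNA lists; each point is 1 member, bars are list medians and the dotted line is the median of all members, 0.03. The copper median is at 1.35 and the phosphate median at 1.00, while the tasiRNA and phase change medians are at -0.84 and -0.54, and white points have no library values.

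In the auxin list 19 members were tested, of which 6 fell, 0 rose and 13 were not called, where 5.65% of all tested miRNAs were lowered and 4.8% raised. With 1 entry per sequence, 5 of 15 tested ones fell and 0 rose. The median log2 ratio over all 24 members was 0.10. Without ABA library b, 1 member was called lowered, and without mock library a, 3 were. Without mock library b, 3 were called lowered and 1 raised. The members that fell were miR167a-3p, the 3p arms of miR393a and miR393b, both arms of miR390a, and miR390b-5p. The 3p arm miR167a-3p fell from 2597 and 2678 in mock to 996 and 634 in ABA, a 3.32-fold fall (log2 difference -1.73, SE 0.34, adjusted p = 0.00184), and its call held in all 4 fits. The guide of that hairpin, miR167a-5p, which acts on AUXIN RESPONSE FACTOR messages, had no library values and deposited means of 131641 and 103783, a log2 ratio of -0.34.

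The miR390 guide triggers the production of small RNAs from TAS3 transcripts, which in turn act on other AUXIN RESPONSE FACTOR messages. Its sequence, read at miR390a-5p, fell from 925 and 1205 in mock to 660 and 526 in ABA (log2 difference -0.84, SE 0.18, adjusted p = 0.00411). The 3p arm miR390a-3p fell from 925 and 624 to 370 and 299 (log2 difference -1.19, SE 0.33, adjusted p = 0.0216), while miR390b-3p was at 0.15 with overlapping libraries. Both falls lost their call without ABA library b, and also without mock library b for the guide and mock library a for the 3p arm. In the tasiRNA list these arms and miR390b-5p, which shares the guide sequence, were the 3 lowered entries of 7 tested, and 0 rose, where 5.65% of all tested miRNAs were lowered. Without ABA library b 0 of the 3 were called, and without mock library b 1 was. The other trigger, miR173-5p, stood at 4371 and 5700 in mock and at 3750 and 5400 in ABA and did not pass (log2 difference -0.15, adjusted p = 0.731). The value of miR828, which starts small RNAs from TAS4, was -0.95 (adjusted p = 0.0902).

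The miR393 family acts on the auxin receptors TIR1 and AFB, and its arms parted most of all 79 hairpins with both arms among the members. The 5p guide was the most abundant member, with deposited means of 515907 in mock and 1116551 in ABA at miR393a-5p, or 12.0% and 19.7% of the group total. Its log2 ratio was 1.11, with an adjusted p of 0.185 in the authors' deposited table, and it had no library values. Its counterpart miR393b-5p has the same sequence and nearly the same listed means, so these shares are those of 1 entry. The 3p arms fell: miR393b-3p from 4395 and 3780 to 2492 and 1780 (log2 difference -0.95, SE 0.24, adjusted p = 0.0110), and miR393a-3p from 685 and 705 to 442 and 306 (log2 difference -0.92, SE 0.26, adjusted p = 0.0256). Both calls were lost without ABA library b or mock library a, and that of miR393a-3p also without mock library b.

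The list of families reported in other work to rise with ABA holds miR397, miR393, miR159, miR168, miR402 and miR394. Of its 11 tested members 1 rose, 2 fell and 8 were not called, where 4.8% of all tested miRNAs were raised and 5.65% lowered, so that these few calls show nothing about the list. Neither fall was called without ABA library b or without mock library a, and 1 was without mock library b. The member that rose was miR397a, and the 2 that fell were the miR393 3p arms. Over all 18 members, including 7 without library values, 14 log2 ratios of group means were above 0 and the median was 0.45. The deposited means of miR159a, which acts on GAMYB transcription factor messages with a role in ABA signalling, were 386309 and 525906, a log2 ratio of 0.45 (adjusted p of 0.794 in the authors' deposited table). Those of miR168a-5p, the regulator of ARGONAUTE1, were 258742 and 295011, a log2 ratio of 0.19. As shares of the group total in mock and ABA, miR159a held 8.97% and 9.28% and miR168a-5p held 6.01% and 5.21%. The share of miR397b was 1.14% in mock and 2.21% in ABA. The ABA column sums to more than the mock column, so a log2 ratio of means can be above 0 without a larger share. Both sums count the miR393 5p sequence at 2 entries, and at miR393a-5p the means are 515907 in mock and 1116551 in ABA. The shares of other miRNAs depend on this double listing, and shares without these entries were not computed. The level of miR402 was 47.2 and 47.9 in mock and 85.2 and 68.3 in ABA, and its log2 difference of 0.67 did not pass (adjusted p = 0.312). The entry miR394a, whose guide targets the F-box protein LCR, had overlapping libraries and a log2 difference of 0.52 (adjusted p = 0.404).

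The phase change list holds miR156 and miR157, which act on SPL transcription factors, and miR172, which acts on APETALA2-like factors. Its 28 members hold 17 sequences, with a miR156 guide listed 6 times and a miR157 guide 3 times. Counts of members in this list thus count some sequences repeatedly. The median log2 ratio was -0.54, with 22 of 28 ratios under 0. Of 17 tested members 0 passed, where 10.5% of all tested miRNAs were called. Without ABA library a, 4 of the 17 were lowered, and 0 in each of the other 3 fits with 1 library left out. The ABA libraries differed for this list. Library b was below library a in 25 of 28 members, with a median log2 difference a minus b of 0.77, where 177 of 321 members of the table were lower in b and the median was 0.05. Set against the mock mean, the median of the list was -0.19 for ABA library a and -1.05 for ABA library b. The shared guide miR156a-5p was at 26158 and 12707 in ABA libraries a and b, with a deposited mock mean of 29875. The part of ABA library b in the values of this list was not tested.

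Of the remaining lists, the leaf list (miR319, miR396, miR165 and miR166) had 1 of 5 tested members lowered, where 5.65% of all tested miRNAs were lowered. Its median log2 ratio was -0.32 over 20 members, 15 of them without library values. These 20 members hold 11 sequences, and the miR166 guide alone is listed 7 times. The lowered member was miR396b-3p, the passenger of a guide that acts on GROWTH-REGULATING FACTOR messages, from 2701 and 2548 in mock to 1473 and 806 in ABA (log2 difference -1.27, SE 0.33, adjusted p = 0.0144). Its call was kept only without ABA library a. The guide miR396a-5p had deposited means of 53842 and 80347, a log2 ratio of 0.58, and miR396b-5p one of -0.27. In the silencing, defence, SCARECROW-LIKE and MYB lists 0 of 8, 0 of 5, 0 of 8 and 0 of 5 tested members passed, with median log2 ratios of 0.23, -0.17, 0.29 and 0.35. Without mock library b, 1 silencing member was raised.

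Several called members belong to none of these lists. The largest fall was that of miR5634, with 65 and 30 recovered reads in mock and 2 and 4 in ABA, or 47.9 and 26.6 normalised reads against 2.18 and 5.47. It met the level of 10 only through its mock mean of 37.3, as its ABA mean was 3.83, and the same holds for miR5645c. The groups were well apart, and the log2 difference was -3.02 (SE 0.53, adjusted p = 0.000675), from -3.53 to -2.51 with 1 library left out. The mature miR5634 lies on chromosome 4, 14982322 to 14982342, plus strand, opposite to the coding gene AT4G30750. The call of miR5645c, at 14.7 and 20.4 in mock and 6.55 and 2.73 in ABA, rested on 2 to 23 recovered reads a library (log2 difference -1.79, SE 0.56, adjusted p = 0.0464) and was kept only without ABA library a. The level of miR850 fell from 129 and 121 to 61.2 and 64.2 (log2 difference -0.98, SE 0.24, adjusted p = 0.0107). For miR5024-5p the fall was from 81.8 and 71.0 to 42.6 and 34.2 (log2 difference -0.98, SE 0.25, adjusted p = 0.0144). Both lost their call without ABA library b or mock library a.

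On the raised side, miR824-3p, the partner of the guide that acts on AGAMOUS-LIKE16 in the stomatal lineage, was at 3644 and 6443 in mock and at 8863 and 14883 in ABA. The spread within each group was wide, and the log2 difference of 1.24 (SE 0.37, adjusted p = 0.0314) lost its call without ABA library b or mock library a. The guide miR824-5p had deposited means of 36642 and 51901, a log2 ratio of 0.50. The level of miR861-3p rose by 0.80 (SE 0.26, adjusted p = 0.0478). The remaining lowered members were miR158a-5p at -0.89, miR829-5p at -0.95 and miR837-5p at -0.89, and the call of miR158a-5p was lost in each fit with 1 library left out. The calls of miR829-5p, miR837-5p and miR861-3p were kept only without ABA library a.

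Members without library values were abundant, with a mean of the columns of at least 13170, and they hold 22 distinct sequences in 39 entries. Some tested members were as abundant, up to miR169a-5p with a mean of 18204. The log2 ratio of their deposited means was above 0 in 13 and below 0 in 26. Highest were miR397b at 1.35, miR393a-5p and miR393b-5p at 1.11, miR396a-5p at 0.58, miR167d at 0.54 and miR824-5p at 0.50. Lowest were the 6 entries of the shared miR156 guide, from miR156a to miR156f, at -0.62 to -0.61. The authors' deposited table called 16 of its entries at an adjusted p under 0.05 at 6 h, which is 3.87% of those with a p, and all 16 were members. Of these, 15 were among the 36 called with limma, which is 93.8% of the authors' calls and 41.7% of the limma calls, and the other 1 was miR397b. Shared on the raised side were miR397a, miR399d, miR2111a-5p, miR2111b-5p, miR2111b-3p and both arms of miR398b and miR398c. Shared on the lowered side were miR5634, miR167a-3p, miR169b-5p, miR169b-3p, miR169c and miR396b-3p. The other limma calls did not pass in the authors' deposited table. Both sets of calls come from the same libraries.

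Both arms were members in 79 hairpins. The log2 ratios had the same sign in 49 hairpins and opposite signs in 30, and the gap between the arms was at least 1 in 11. Across the 79 hairpins the ratios of the more and the less abundant arm had a Pearson r of 0.42, a description only, since hairpins share libraries and sequences. Both arms were called in the same direction in 6 hairpins, namely miR398b, miR398c, miR408 and miR2111b raised and miR169b and miR390a lowered. Called in opposite directions were the arms of miR398a. Of the less abundant arms 76 were tested, 6 raised and 11 lowered, with a median log2 ratio of -0.17. Of the more abundant arms 57 were tested, 5 raised and 5 lowered, with a median of -0.03. Over all tested miRNAs 4.8% were raised and 5.65% lowered, and the 2 kinds of arm were not tested against each other.

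**Figure D4:**
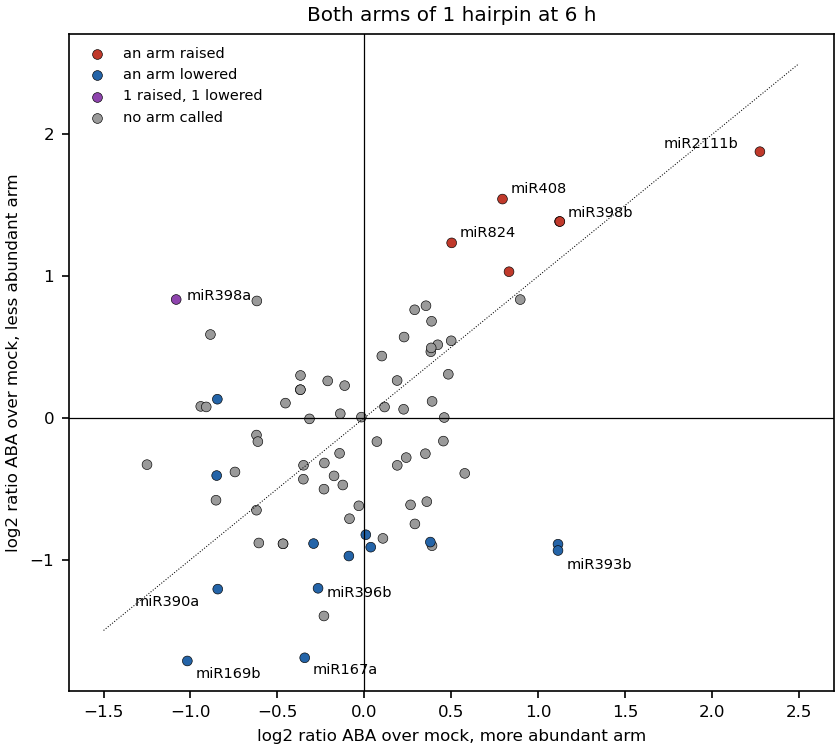
Log2 ratio of ABA to mock group means at 6 h for the more abundant arm (horizontal) and the less abundant arm (vertical) of 79 hairpins; the dotted line marks equal ratios. The hairpins miR393a and miR393b lie at 1.11 for the 5p arm and at -0.89 and -0.94 for the 3p arm, and miR2111b lies near the dotted line at 2.28 and 1.88.

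The response at 6 h was set against that at the other 6 times, each with its own mock. Members called at 6 h were picked for their 6 h difference, and 6 h is itself 1 of the 7 times. The counts that follow are thus partly fixed by that choice and are a description, without the same counts over all members. Of the 36 members called at 6 h, 19 had the same sign of the log2 ratio at all 7 times and 31 at 6 or 7 of them. Among the raised members, 12 of 16 kept their sign throughout and 1, miR399d, had its largest ratio at 6 h. Among the lowered members, 7 of 20 kept their sign throughout and 7 had their lowest ratio at 6 h. The ratio of miR397a ran from 0.91 at 0.5 h over 1.65, 2.26 and 2.44 at 1, 3 and 6 h to 2.53, 1.92 and 1.75 at 9, 12 and 24 h, so that 6 h was close to its highest value. The ratio of miR167a-3p was -0.20, 0.06 and -0.57 at 0.5, 1 and 3 h and -1.69 at 6 h, and then stayed between -1.68 and -2.10.

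A limma contrast of the 6 h difference minus the mean difference at the other 6 times called 0 of 358 tested miRNAs (0%), of which 285 were members, and 29 of 358 had an unadjusted p under 0.05. The lowest adjusted p was 0.282. The contrast was -2.02 (SE 0.58) for miR5634, whose ratio at the other times lay between -1.68 and 0.00, and -1.90 (SE 0.62, adjusted p = 0.432) for miR5645c. It was 0.81 (SE 0.23) for miR2111b-3p and 0.59 (SE 0.28, adjusted p = 0.597) for miR397a. For miR399c-5p it was -1.11 (SE 0.32, adjusted p = 0.282). A miRNA that did not pass here is not thereby shown to respond alike at all times.

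**Figure D5:**
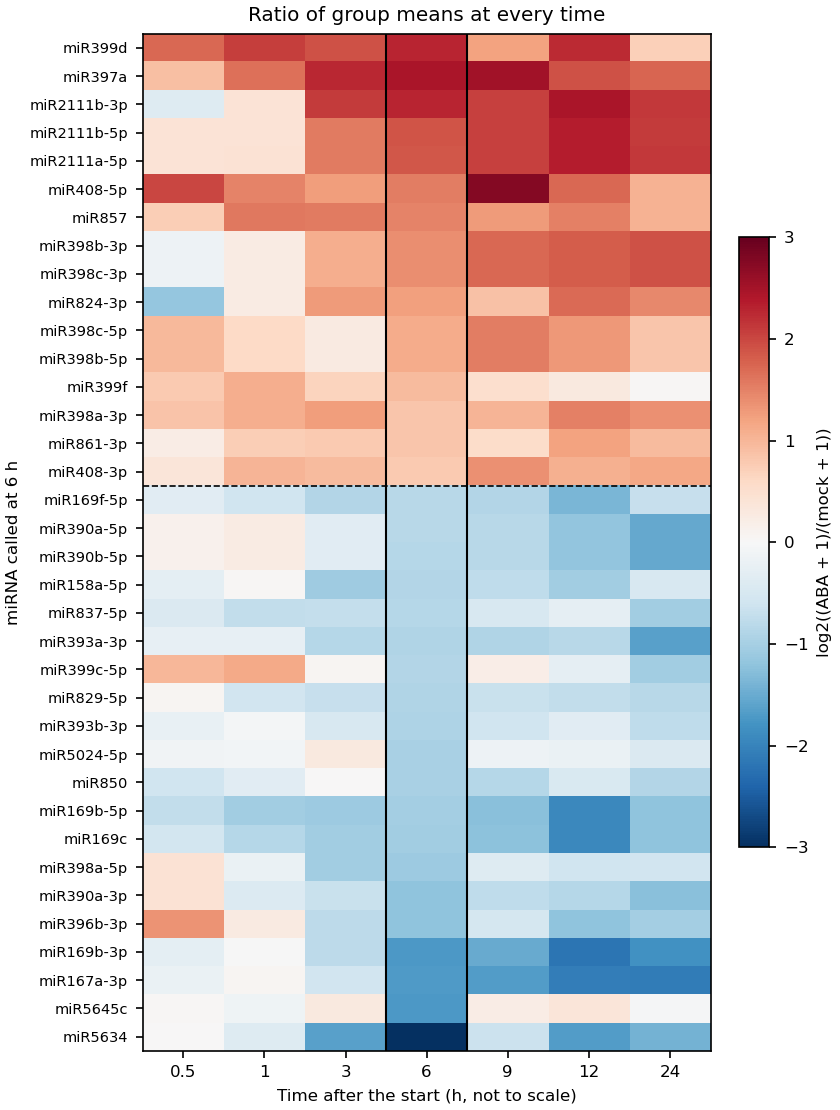
Log2 ratio of ABA to mock group means at each of 7 times (columns, in h, not to scale) for the 36 members called at 6 h (rows, raised above the dashed line); red is higher in ABA and blue lower. The raised rows are red at nearly all times, with blue for miR824-3p, miR2111b-3p and the shared miR398b-3p sequence at 0.5 h, and several lowered rows, such as miR396b-3p and miR399c-5p, are red at 0.5 h.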

How the data were processed

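Per the submitters' processing notes, FastQC, STAR and TAIR10 were used. Their versions, the counter, annotation, multi-mapping rule, normalization and test are not stated there. The authors' deposited table holds 14 signal columns, 1 for each group, and the authors' own adjusted p-value at each time. The design text gives more samples than the 28 labelled ones, and only these 28 enter here. Each signal value could be written as 2 whole counts times 2 steps of its column, as a mean of 2 counts over their size factors would be. With the steps found, 100% of values between 0 and 100 could be split, and a mean of 0% after shifting the steps randomly by as much as 10%. A value was used where 1 pair of whole counts alone was possible, which held for 5321 of 5894 values (90.3%). The size factors at 6 h were 1.36 and 1.13 for mock and 0.916 and 0.732 for ABA. Median-of-ratios factors of these 4 libraries were 1.35, 1.11, 0.915 and 0.738.

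Library values were transformed as log2(value + 1) and fitted in R 4.3.3 by limma 3.58.1, using lmFit and then eBayes with its trend option, with a mean for each of 14 groups. Tested miRNAs had values for all 4 libraries of 6 h and at least 1 in at least 2 of them. For the contrast of 6 h with the other times, values in all 28 libraries were required, which 285 of the 304 tested members had. For the rest, the 6 h test took its spread from fewer than 14 groups. Tests were two-sided, with Benjamini-Hochberg adjustment over all tested miRNAs and a threshold of 0.05. Ratios of group columns, with a pseudocount of 1, carry no test. Splitting and fitting were tested on simulated data. The alternatives changed the pseudocount, the filter, the scaling, the fold and the libraries in the fit.

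Named by rule were the 12 raised and 12 lowered called members with the largest differences and separate libraries, the 6 highest and 6 lowest ratios without library values, the 5 most abundant members, and list members as examples. The other called members, the hairpin arms and the comparison of ABA libraries were added after their values were seen. The members and lists were chosen with earlier results of these data known. Mature sequences and positions are from RefSeq TAIR10.1, matched by name for 413 of 421 entries, with no position carried over from the authors' build. Of these, 123 entries share 45 sequences.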

Additional observations from a re-analysis of the deposited data

Results flagged for a closer look

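For 7 entries called at 6 h, both ABA libraries lay on one side of the mock libraries at 6 h and on the other side at another time. The differences between these times were not tested singly. At 0.5 h the log2 ratio of group means was -0.38 for miR2111b-3p and -1.15 for miR824-3p, which were raised at 6 h. For members lowered at 6 h it was 0.44 for miR390a-3p and 1.34 for miR396b-3p at 0.5 h, and at 1 h it was 0.25 for miR390a-5p and 0.25 for miR390b-5p, which share 1 sequence. For miR399c-5p it was 0.99 at 0.5 h, 1.13 at 1 h and 0.19 at 9 h, against -0.88 at 6 h.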

How the results depend on the processing

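No paired analysis was possible because the deposited columns carry no replicate number, so libraries cannot be matched between groups. Against 16 raised and 20 lowered members, leaving out 1 library gave 8 to 17 raised and 5 to 25 lowered. Each such fit has 1 sample in an arm, assumed to vary like the other groups. With only the 4 libraries of 6 h, 11 were raised and 7 lowered, which leaves 2 residual degrees of freedom in place of the shared estimate. Pseudocount 0.1, no filter, median centring, quantile normalization, joint size factors and 1 entry per sequence gave 13 to 17 raised and 16 to 20 lowered. The contrast with the other times gave 0 calls under every setting run. At least 2-fold higher and lower in group means were 20 and 12 members. At 1.5-fold they were 44 and 56, and with a mean of at least 100 the number lower was 7. Among the 36 called members, direction did not reverse under any setting run. Settings other than leaving out a library lost 31 calls, 18 of them in the fit of 4 libraries. Depth limits the rare members: miR5634 had 2 and 4 reads in ABA.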
